A study of Mus musculus with 10 samples.

Results

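The genes described here are the neurotrophin *Bdnf*, the neurotrophin receptors *Ntrk2*, *Ntrk3* and *Ngfr*, the sorting receptor *Sort1*, and *Vgf*, a secretory granule protein of neurons that is induced by neurotrophins. They were chosen by gene symbol, with earlier results of these data known. Of the 7 genes named, 6 were found among the 15900 genes of the expression table. The other one, *Ntf3*, was not analysed here. The table comes from cap analysis of gene expression (CAGE), which sequences the capped 5′ ends of RNA, so each tag marks a start of transcription. Values are CPM, the tag count of a gene scaled to the total of its library, and they are not divided by transcript length because a transcript gives 1 tag whatever its length.

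All 10 libraries came from whole hippocampi of male ICR mice, 1 mouse each, that were 9 to 10 weeks old when status epilepticus (SE) was induced. Each of 5 groups held 2 mice. Pre-SE mice are labelled as untreated, and the methods describe control mice as given saline in place of pilocarpine (PILO). The SE 6 h and SE 2 days mice received methyl scopolamine, then PILO, then diazepam to end the SE, and were sampled at 6 h or 2 days. The SE + LEV 6 h and SE + LEV 2 days mice also received oral levetiracetam (LEV), an antiepileptic drug that binds the synaptic vesicle protein SV2A, 1 time and 5 times, respectively. ICR is an outbred stock, so that mice of a group differ in genotype. The comparisons ask how SE changed expression at each time and whether LEV given after SE altered it.

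Neurotrophins are small secreted proteins that support survival, growth and synaptic plasticity of neurons. They are made as precursors, which are cut by proprotein convertases or by extracellular plasmin and metalloproteinases. The mature forms signal through Trk tyrosine kinases, TrkB (*Ntrk2*) for BDNF and TrkC (*Ntrk3*) for neurotrophin-3, whereas the precursors bind the p75 receptor (*Ngfr*) together with sortilin (*Sort1*), a receptor that also sorts BDNF inside the cell. *Bdnf* is a classical activity-regulated gene of hippocampal neurons and is transcribed from several alternative promoters.

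The table holds 1 value per gene, so the *Bdnf* values do not separate these promoters. In the mm9 annotation *Bdnf* (ENSMUSG00000048482) lies on the plus strand at chr2:109514857-109567204, with 10 transcripts and 7 distinct starts. RefSeq promoter windows of the GRCm38.p6 build, running from 250 bases before to 50 bases after a start, were found for 3 of the 6 genes, namely 7 for *Bdnf*, 1 for *Ntrk2* and 1 for *Ngfr*. Both strands of these 9 windows were searched for the letters of the CRE (TGACGTCA), AP-1 (TGANTCA), E-box (CACGTG) and Egr (GCGTGGGCG) motifs. The only match, so that none overlapped another, was AP-1 in 1 window, at the second *Bdnf* start, beginning 152 bases before it, and the other motifs were matched in 0 windows. Among all 32851 windows of the table, 7.81% held the AP-1 letters, 1.79% the CRE, 7.15% the E-box and 0.612% the Egr letters. The bases before the first start (chr2:109674450-109674699) and the second start (chr2:109676782-109677031) are shown because *Bdnf* is the gene the results turn on. Both are on the plus strand of the reference strain, and capitals mark the AP-1 match.
Bdnf, first start: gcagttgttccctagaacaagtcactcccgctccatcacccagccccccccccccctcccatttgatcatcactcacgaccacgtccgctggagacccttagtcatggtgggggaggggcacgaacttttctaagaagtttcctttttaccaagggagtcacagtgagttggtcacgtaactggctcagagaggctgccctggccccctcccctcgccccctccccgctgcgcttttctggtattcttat
Bdnf, second start: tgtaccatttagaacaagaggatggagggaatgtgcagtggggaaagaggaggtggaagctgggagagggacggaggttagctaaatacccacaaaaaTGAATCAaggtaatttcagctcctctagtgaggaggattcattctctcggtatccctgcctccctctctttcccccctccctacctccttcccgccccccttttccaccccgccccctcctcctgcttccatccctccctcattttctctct
A match is a string of letters and not a measured binding site, and the tags of the separate starts were not told apart here. Only the exact letters were counted, so a window without a match may still hold a variant of a motif.

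Differences are given as logFC, the difference of group means of log2(CPM + 0.1), which understates changes of genes with few tags. They were tested with limma across 15851 genes, those that reached 0.1 CPM or more in 2 or more libraries, and a gene was called at an adjusted p of at most 0.05. An exact permutation test of 2 mice against 2 (two-sided) cannot go below p = 0.333, and each call thus relies on limma's pooling of the spread over genes and groups. Totals ran from 10540698 to 51710968 tags, and at least 25 tags lay behind each value of the 6 genes. Of 72 genes marking 15 cell types, 63 were tested. The summed neuronal markers ran from 8284 to 9612 CPM in pre-SE mice and from 4367 to 5522 CPM in SE 2 days mice. Those of the choroid plexus were 865 to 3999 CPM in 4 libraries, namely pre-SE replicate 2, SE 6 h replicate 2 and replicate 1 of both SE + LEV groups, against 8.50 to 67.5 CPM in the other 6. In whole tissue, fewer cells of a type and less RNA per cell cannot be told apart.

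*Bdnf* and *Vgf* rose at 6 h after SE, and *Vgf* was also called higher at 2 days. Against pre-SE mice, 2 of 6 genes were called higher and 0 lower at 6 h, beside 2.76% of all genes higher and 0.202% lower. At 2 days 1 was called higher and 0 lower, beside 5.07% and 0.593% of all genes. At an unadjusted p under 0.05, 3 of the 6 and 17.7% of all genes passed at 6 h, and 4 of the 6 and 19.8% at 2 days. Both comparisons share the pre-SE mice. The median logFC of the 6 genes was 0.72 at 6 h, where the median of all genes was −0.13, and 1.06 at 2 days, where it was −0.03. The 4 genes that were not called at 6 h, and the 5 at 2 days, are described below by their values.

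**Figure D1:**
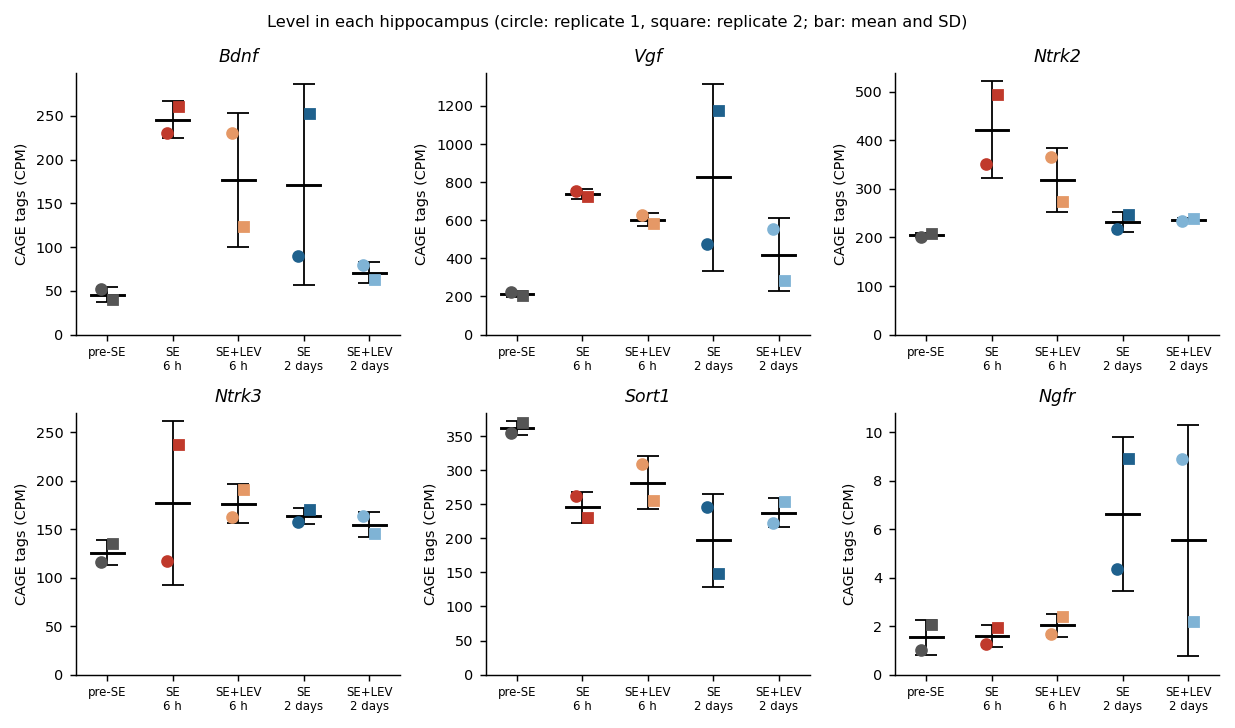
CPM of the 6 genes on a linear axis, with 1 point for each mouse. A line and bar give the mean and SD of the 2 mice of each group. *Bdnf* and *Vgf* sit lowest in pre-SE mice, *Sort1* sits highest there, and the 2 SE 2 days mice lie far apart for *Bdnf* (89.97 and 252.71 CPM) and *Vgf* (477.63 and 1172.28 CPM).

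*Bdnf* had 51.97 and 39.55 CPM in the pre-SE mice, 230.87 and 260.58 CPM in the SE 6 h mice and 89.97 and 252.71 CPM in the SE 2 days mice. All 4 SE mice lay above both pre-SE mice, and replicate 1 of the SE 2 days group lay nearest to them. The group means were 45.8 ± 8.78, 245.7 ± 21.0 and 171 ± 115 CPM (SD, n = 2). At 6 h the logFC was 2.43 (SE of the estimate 0.45, 95% interval 1.44 to 3.42), which is 5.40-fold, with an adjusted p of 0.0178. Leaving out any 1 of the 4 mice ended this call, although the logFC stayed between 2.24 and 2.63. With 1 mouse fewer, the number of all genes called higher also went from 437 to between 106 and 184. The adjusted p of *Bdnf* was 0.0712 without pre-SE replicate 1, 0.113 without pre-SE replicate 2, 0.0806 without SE 6 h replicate 1 and 0.141 without SE 6 h replicate 2.

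At 2 days the *Bdnf* logFC was 1.73 (SE of the estimate 0.45, interval 0.74 to 2.72) with an adjusted p of 0.0513, so it was not called. The 2 mice differed 2.81-fold. Without SE 2 days replicate 1 the logFC was 2.48 and *Bdnf* was called (adjusted p = 0.0157), and without replicate 2 it was 0.99 (adjusted p = 0.39). The neuronal marker sums, with 0 of 6 markers called and 0 at a level of 0, were lower in the SE mice while *Bdnf* was higher. Their mean was 75.03% of the pre-SE mean at 6 h and 55.3% at 2 days. The summed markers of pyramidal cells and of interneurons overlapped between pre-SE and SE 2 days mice, while those of dentate granule cells were lower. Single markers differed less between these lists. At 2 days 3 of 5 pyramidal, 4 of 5 interneuron and 3 of 4 tested dentate markers had lower estimates.

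*Vgf* (chr5:137506165-137509221, mm9, plus strand), whose product is cut into peptides released from dense-core granules, had the highest mean level of the 6 genes and ranked 193rd of all 15900. It had 225.45 and 203.50 CPM in pre-SE mice, 756.37 and 719.92 CPM in the SE 6 h mice and 477.63 and 1172.28 CPM in SE 2 days mice. The SE mice of both times lay above both pre-SE mice, and the 2 SE 2 days mice lay on either side of the SE 6 h mice. The logFC was 1.78 (SE of the estimate 0.41, interval 0.87 to 2.70) at 6 h, 3.44-fold, and 1.80 (SE of the estimate 0.41, interval 0.89 to 2.72) at 2 days, 3.49-fold. The adjusted p was 0.0496 at 6 h and 0.0319 at 2 days.

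The 6 h call of *Vgf* lay at the threshold. It was lost when any 1 of the 4 mice was left out, with adjusted p from 0.162 to 0.233 at logFC from 1.71 to 1.86. It was also lost in 6 of 9 other settings, with adjusted p from 0.0508 to 0.0838. The 2 days call was lost without pre-SE replicate 1 (adjusted p = 0.128), pre-SE replicate 2 (adjusted p = 0.13) or SE 2 days replicate 2 (logFC 1.16, adjusted p = 0.259). It was also lost with replicate number as a block (adjusted p = 0.0507) and without the mean-variance trend (adjusted p = 0.0556). Without SE 2 days replicate 1 the logFC was 2.45.

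*Ntrk2* lies at chr13:58907957-59235331 (mm9, plus strand) and encodes TrkB, of which neurons make the full-length kinase and astrocytes mainly a truncated form. The annotation gives it 3 distinct starts, and the gene values do not separate the forms. It had 201.99 and 207.75 CPM in pre-SE mice, 350.95 and 492.85 CPM in the SE 6 h mice and 216.62 and 245.93 CPM in SE 2 days mice. The SE 6 h mice lay well above all pre-SE and SE 2 days mice, and the SE 2 days mice lay just above the pre-SE mice. At 6 h the logFC was 1.02 (SE of the estimate 0.24, interval 0.49 to 1.56) with an adjusted p of 0.0529, so *Ntrk2* was not called. It was called when libraries were rescaled by the median of ratios (logFC 1.15, adjusted p = 0.0358), which moved the median of all genes from −0.13 to −0.0047. This was the lowest adjusted p among the settings other than leaving out a mouse, where it reached 0.129. With 1 mouse left out the logFC ran from 0.78 to 1.27. The summed astrocyte markers averaged 100.04% of their pre-SE level at 6 h, where *Ntrk2* stood at 205.9% of its own, and 178.5% at 2 days, where *Ntrk2* stood at 112.9%. The sum at 2 days was carried by *Gfap*, with 245.62 and 230.22 CPM in pre-SE mice and 2281.84 and 3642.11 CPM in SE 2 days mice. Without it, the other 5 markers summed to 83.6% of their pre-SE level at 6 h and 59.3% at 2 days, and 3 of all 6 markers had lower estimates at 2 days. The part of astrocytes in the *Ntrk2* values was not tested.

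*Ntrk3* lies at chr7:85337248-85723294 (mm9, minus strand) and encodes TrkC, the preferred receptor of neurotrophin-3. Its values were 116.33 and 134.73 CPM in pre-SE mice, 117.20 and 236.39 CPM in the SE 6 h mice and 157.43 and 169.51 CPM in SE 2 days mice. SE 6 h replicate 1 stood among the pre-SE mice and replicate 2 was the highest of all 10, so the groups overlapped at 6 h. The logFC was 0.41 (interval −0.26 to 1.08) at 6 h and 0.38 (interval −0.29 to 1.05) at 2 days, with adjusted p of 0.506 and 0.55.

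*Ngfr* (chr11:95430132-95449049, mm9, minus strand) encodes p75, a death-domain receptor that is low in the adult hippocampus outside cholinergic fibres and some non-neuronal cells. It was the lowest of the 6 genes and ranked 12621st in mean level. It had 1.03 and 2.05 CPM in pre-SE mice, 1.28 and 1.92 CPM in the SE 6 h mice and 4.37 and 8.88 CPM in SE 2 days mice. The SE 6 h values fell inside the pre-SE range, and both SE 2 days mice were above all pre-SE and SE 6 h mice. At 2 days the logFC was 2.02 (SE of the estimate 0.64, interval 0.59 to 3.45), 4.06-fold, but the adjusted p was 0.106.

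For *Ngfr* at 2 days, a fit of the pre-SE and SE 2 days libraries alone gave an adjusted p of 0.0484. This was the lowest among the settings other than leaving out a mouse, where it reached 0.135. With 1 mouse left out the logFC ran from 1.52 to 2.53. The 3 markers of cholinergic neurons of the basal forebrain were not analysed here. The summed fibroblast and meningeal markers were 67.1 and 149 CPM in pre-SE mice and 150 and 132 CPM in SE 2 days mice, and the choroid plexus sums were 12.5 and 1703 against 67.5 and 22.8 CPM. The part of other cell types in the *Ngfr* values was not tested.

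*Sort1* (chr3:108087009-108164429, mm9, plus strand) was the one gene of the 6 that was highest before SE. It overlaps *Gm12523* on the other strand, and the sources used here do not say how tags of such a pair were assigned. Its values were 354.74 and 368.80 CPM in pre-SE mice, 261.79 and 229.88 CPM in the SE 6 h mice and 245.62 and 148.21 CPM in SE 2 days mice. All 8 mice given PILO, with or without LEV, lay below both pre-SE mice, with a highest value of 309.37 CPM. The logFC was −0.56 (interval −1.14 to 0.02) at 6 h and −0.92 (SE of the estimate 0.26, interval −1.51 to −0.34) at 2 days, with adjusted p of 0.301 and 0.0722, so it was not called at either time. Without SE 2 days replicate 1, which left the lower mouse, the logFC was −1.29, and without replicate 2 it was −0.56. In the settings other than leaving out a mouse, the adjusted p from limma at 2 days ran from 0.072 to 0.117.

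At 2 days the mean of *Sort1* was 54.4% of its pre-SE mean, that of the summed neuronal markers 55.3% and that of the summed oligodendrocyte markers 43.4%. At 6 h the corresponding values were 68.0%, 75.03% and 95.3%. The summed markers of single neuron types did not all fall at 2 days, and markers within each list differed. Pyramidal cell sums were 864 and 932 CPM in pre-SE mice and 1031 and 792 CPM in SE 2 days mice. In this list 3 of 5 estimates were lower. *Fibcd1* was called lower (logFC −2.02, adjusted p = 0.0448), while *Nptxr*, the largest marker, had a logFC of 0.35. Interneuron sums were 827 and 1001.5 CPM, then 765 and 1230 CPM, with 4 of 5 estimates lower. Dentate granule cell sums were 447 and 366 CPM, then 270 and 199 CPM. Most of this was *Calb1*, with 348.57 and 277.19 CPM, then 154.08 and 136.79 CPM, and 3 of the 4 tested markers had lower estimates. The part of these cell types in the *Sort1* values was not tested.

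Groups that do not overlap are common with 2 mice a group. At 6 h, 3 genes (*Bdnf*, *Ntrk2*, *Vgf*) were higher and 1 (*Sort1*) was lower in both SE mice than in both pre-SE mice, beside 18.6% and 31.3% of all genes. At 2 days 5 were higher and 1 was lower, beside 26.3% and 25.6%.

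**Figure D2:**
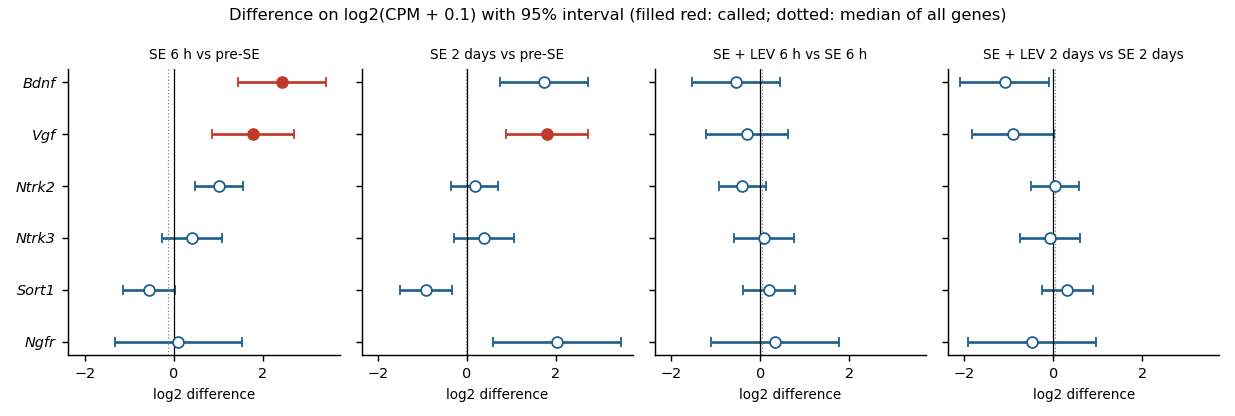
Differences of group means on the log2(CPM + 0.1) scale for the 6 genes, with 95% intervals from limma and called genes marked. Shown are SE against pre-SE mice and SE + LEV against SE mice, each at 6 h and 2 days. *Bdnf* and *Vgf* lie above 0 in SE against pre-SE mice, and the LEV comparisons hold 0 called genes.

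LEV-treated mice had lower *Bdnf* on average than SE mice at both times, but the test across all genes called 0 of the 6 genes at 6 h or at 2 days. Of all genes, limma called 0.0126% at 6 h and 0% at 2 days. At an unadjusted p under 0.05, 0 of the 6 genes and 4.58% of all genes passed at 6 h, and 1 of the 6 genes and 2.70% of all genes passed at 2 days. The adjusted p of all 6 genes was 1.0 at both times, and it stayed above the threshold in every setting run.

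*Bdnf* had 230.53 and 122.76 CPM in the SE + LEV 6 h mice, and the higher of these was just under the lower SE 6 h mouse at 230.87 CPM. The groups did not overlap, yet the mean of 176.6 ± 76.2 CPM (SD, n = 2) had a spread that reached the SE 6 h level. The logFC against SE 6 h mice was −0.54 with an interval of −1.53 to 0.45. In SE + LEV 2 days mice *Bdnf* had 79.53 and 62.18 CPM, both between the pre-SE mice and the lower SE 2 days mouse at 89.97 CPM. The logFC against SE 2 days mice was −1.10 (interval −2.09 to −0.11, unadjusted p = 0.033), a fold of 0.467.

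*Vgf* had 626.62 and 578.80 CPM in SE + LEV 6 h mice, under both SE 6 h mice, and 555.74 and 283.69 CPM in SE + LEV 2 days mice, where the groups overlapped. The logFC was −0.29 (interval −1.21 to 0.63) at 6 h and −0.91 (interval −1.83 to 0.0041) at 2 days. For both genes a small difference and a fall of more than 1 on the log2 scale lie within the intervals.

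The receptors came next. *Ntrk2* had 364.79 and 272.28 CPM in SE + LEV 6 h mice and 233.96 and 238.39 CPM in SE + LEV 2 days mice, and overlapped with SE mice at both times. Its logFC was −0.40 (interval −0.93 to 0.13) at 6 h and 0.03 (interval −0.50 to 0.57) at 2 days. *Ntrk3* had 162.41 and 190.22 CPM, then 163.59 and 145.15 CPM, with logFC of 0.08 (interval −0.59 to 0.75) and −0.08 (interval −0.75 to 0.59). For *Ntrk3* too, the groups overlapped at both times.

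*Ngfr* had 1.69 and 2.37 CPM in SE + LEV 6 h mice and 8.92 and 2.18 CPM in SE + LEV 2 days mice. The 2 SE + LEV 2 days mice differed 4.09-fold, 1 at the level of the highest SE 2 days mouse and 1 close to the pre-SE mice. The mouse with the higher value was the one with choroid plexus markers at 1500 CPM, against 26.4 CPM in the other, and the part of that tissue was not tested. The order was the same in pre-SE mice, with 2.05 CPM of *Ngfr* beside 1703 CPM of those markers and 1.03 CPM beside 12.5 CPM. It was also the same in SE 6 h mice, with 1.92 CPM beside 3999 CPM and 1.28 CPM beside 8.50 CPM. In SE + LEV 6 h mice the order was the other way, with 1.69 CPM of *Ngfr* beside 865 CPM of those markers and 2.37 CPM beside 39.8 CPM. Both SE 2 days mice had low sums of those markers, at 67.5 and 22.8 CPM. The *Ngfr* logFC was 0.33 (interval −1.10 to 1.76) at 6 h and −0.48 (interval −1.91 to 0.95) at 2 days.

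*Sort1* had 309.37 and 254.25 CPM in SE + LEV 6 h mice and 222.71 and 252.93 CPM in SE + LEV 2 days mice, overlapping with SE mice both times. Its logFC was 0.19 (interval −0.39 to 0.78) and 0.31 (interval −0.27 to 0.90).

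Set against pre-SE mice, the SE + LEV groups also gave 0 called genes of the 6, beside 0.322% of all genes at 6 h and 2.85% at 2 days. At an unadjusted p under 0.05, 3 of the 6 and 9.38% of all genes passed at 6 h, and 2 of the 6 and 10.8% of all genes at 2 days. *Bdnf* had a logFC of 1.89 (adjusted p = 0.152) in SE + LEV 6 h mice and 0.63 (adjusted p = 0.761) in SE + LEV 2 days mice. The corresponding values of *Vgf* were 1.49 (adjusted p = 0.227) and 0.89 (adjusted p = 0.487). *Ngfr* at 2 days had a logFC of 1.54 (adjusted p = 0.396). It was 2.53 without SE + LEV 2 days replicate 2, the mouse at 2.18 CPM, and 0.55 without replicate 1, the mouse at 8.92 CPM. These comparisons share their pre-SE mice with the SE comparisons above and are given side by side only.

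The order of the group means differed between the genes. *Bdnf* was highest in SE 6 h mice, followed by SE + LEV 6 h and SE 2 days mice, then by SE + LEV 2 days mice, and lowest in pre-SE mice, and among neighbours the SE + LEV 6 h and SE 2 days values overlapped. *Vgf* was highest in SE 2 days mice, overlapping with SE 6 h, followed by SE + LEV 6 h, SE + LEV 2 days and pre-SE mice without further overlap between neighbours, although the wide SE 2 days range also overlapped with both SE + LEV groups. *Ntrk2* had both 6 h groups on top, overlapping each other and clear of both 2 days groups. *Ngfr* had both 2 days groups on top, and all of its neighbours in the order overlapped.

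Between 6 h and 2 days after SE, limma called 0 of the 6 genes, beside 4.25% of all genes, and 2 passed an unadjusted p under 0.05, as did 20.1% of all genes. *Ntrk2* had a logFC of −0.85 (interval −1.38 to −0.32, adjusted p = 0.0829) and *Ngfr* one of 1.92 (interval 0.49 to 3.35, adjusted p = 0.135), and neither gene's groups overlapped, which held for 20.1% of all genes in the lower and 31% in the higher direction. *Bdnf* had a logFC of −0.70 (adjusted p = 0.413) and *Vgf* of 0.02 (adjusted p = 0.983). With LEV, 0 of the 6 were called between the times, beside 2.14% of all genes, and *Bdnf* alone passed the unadjusted p, as did 11.9% of all genes, with a logFC of −1.26 (interval −2.25 to −0.27, adjusted p = 0.269). Tested directly, the LEV difference at 2 days minus that at 6 h gave 0 calls among the 6 genes and 0% of all genes, with 0 of the 6 and 2.38% of all genes at an unadjusted p under 0.05. For *Bdnf* it was −0.56 with an interval of −1.96 to 0.85.

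Some genes followed *Bdnf* and *Vgf* closely from mouse to mouse. Likeness was the root mean square difference of log2 levels over the 10 libraries, each gene centred on its own mean, among 14215 genes with a mean of at least 1 CPM. Nearest to *Bdnf* were *Dusp4* (0.21), a phosphatase of MAP kinases, *Sertad1* (0.23) and *Jun* (0.25), a subunit of AP-1, while *Bdnf* itself had a standard deviation of 0.98. *Dusp4* had 11.97 and 11.18 CPM in pre-SE mice, 75.79 and 70.57 CPM in the SE 6 h mice and 23.11 and 89.79 CPM in SE 2 days mice, so that the spread between the SE 2 days mice was shared.

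Nearest to *Vgf* were *Sorcs1* (0.20), a sortilin-family receptor, *Mapk6* (0.26), an atypical MAP kinase, and *Col4a1* (0.27), a basement membrane collagen, and *Vgf* had a standard deviation of 0.77. *Sorcs1* had 8 and 9.11 CPM in pre-SE mice, 27.49 and 26.72 CPM in the SE 6 h mice, and 19.38 and 47.52 CPM in SE 2 days mice. *Bdnf* and *Vgf* lay 0.41 apart by the same measure and on the same side of their own means in 9 of 10 libraries. These points share libraries and depth, and the genes were picked for likeness, so no test was made.

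**Figure D3:**
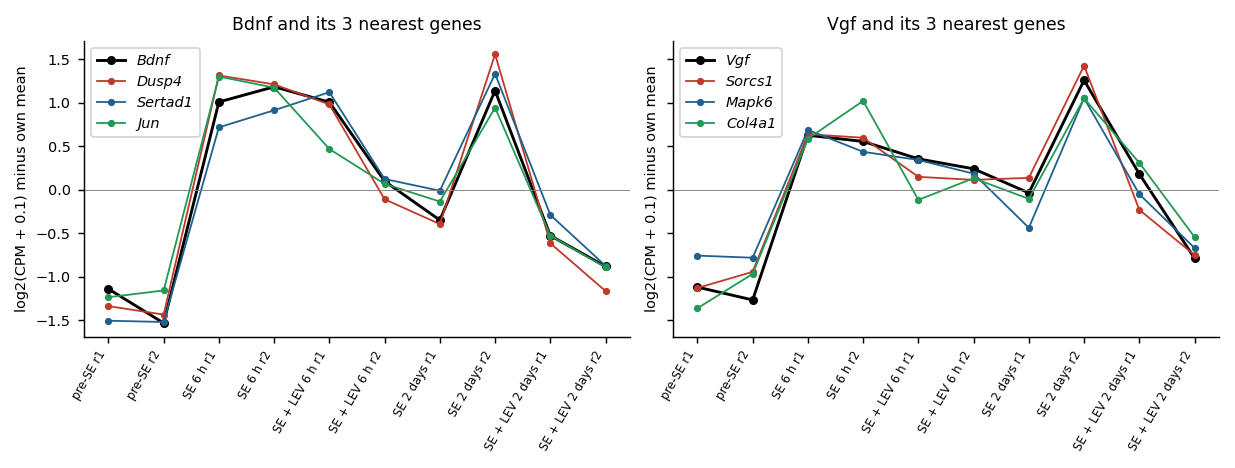
log2 levels of *Bdnf* and *Vgf* and of the 3 genes nearest to each, centred on each gene's own mean, across the 10 libraries in group order. The lines run close together, including the gap between the 2 SE 2 days mice.

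Other genes of the pathway were taken from 8 lists with 105 genes, of which 100 were tested. At 6 h 2.76% of all genes were called higher and at 2 days 5.07%, and 17.7% and 19.8% passed an unadjusted p under 0.05, so list counts near these shares are no result about a list. In the sortilin family, *Sorcs3* rose at both times, from 32.11 and 29.78 CPM in pre-SE mice to 100.74 and 121.28 CPM at 6 h (logFC 1.83, adjusted p = 0.00605) and 93.91 and 122.18 CPM at 2 days (logFC 1.79, adjusted p = 0.00393). *Sorcs1* rose at 2 days (logFC 1.82, adjusted p = 0.0228) and had a logFC of 1.66 at 6 h (adjusted p = 0.0514), which was not called. *Sorl1* was lower in both SE groups than in pre-SE mice without overlap, *Sorcs2* overlapped with them, and neither was called at either time, so 1 of 4 were called at 6 h and 2 of 4 at 2 days. Without SE 6 h replicate 2 the 6 h count was 0, and without SE 2 days replicate 2 the 2 days count was 0. Without either pre-SE mouse the 2 days count was 1. The list medians were 0.77 and 0.98, beside −0.13 and −0.03 over all genes.

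Of 14 genes that cut neurotrophin precursors or inhibit the proteases that do so, 11 were tested, and 4 rose at 6 h, among them the following 3. *Pcsk1*, a convertase of the regulated secretory pathway, had 22.52 and 21.10 CPM in pre-SE mice and 144.78 and 154.30 CPM in the SE 6 h mice (logFC 2.77, adjusted p = 0.00754). *Furin*, the convertase of the constitutive pathway, had a logFC of 1.73 (adjusted p = 0.0345), and *Plat*, tissue plasminogen activator, one of 2.07 (adjusted p = 0.00439).

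At 2 days 2 of these 11 were called higher, among them *Mmp3* (adjusted p = 0.0164). *Mmp3*, a metalloproteinase, had 0 and 0.04 CPM in pre-SE mice, at most 3 tags, and 2.80 and 1.29 CPM in SE 2 days mice. The *Mmp3* call was lost without any 1 of the 4 mice (adjusted p from 0.0601 to 0.11). At 6 h the *Furin* call was lost without pre-SE replicate 2 or either SE 6 h mouse, and *Pcsk1* without SE 6 h replicate 2 (adjusted p = 0.067). *Plat* was kept in each case. The list count at 6 h was 1 without SE 6 h replicate 2, 2 without SE 6 h replicate 1 or pre-SE replicate 2, and 3 without pre-SE replicate 1. At 2 days it was 1 without either pre-SE mouse or SE 2 days replicate 2. The list medians were 1.13 at 6 h and 0.54 at 2 days.

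Granins are the relatives of *Vgf* in dense-core granules, and *Scg2* was the 1 of 6 called at 6 h, with 180.89 and 158.07 CPM in pre-SE mice and 973.34 and 915.00 CPM in the SE 6 h mice (logFC 2.48, adjusted p = 0.00977). It was lost when any 1 of the 4 mice was left out, with adjusted p from 0.0502 to 0.067. At 2 days limma called 0 of 6, with 2 at an unadjusted p under 0.05. The medians were −0.10 and −0.25.

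Of the 32 adaptors and kinases tested downstream of Trk receptors, limma called 0 at 6 h and 0 at 2 days, while 2 and 4 passed an unadjusted p under 0.05, smaller shares than among all genes, and the medians were −0.07 and −0.20. Of 12 partners of p75, 0 were called at 6 h, with 1 at an unadjusted p under 0.05, and 1 was called at 2 days. This was *Nradd*, a death-domain relative of p75, with 0.45 and 0.66 CPM in pre-SE mice and 2.33 and 3.44 CPM in SE 2 days mice (logFC 2.18, adjusted p = 0.0344). The *Nradd* call was lost without any 1 of the 4 mice (adjusted p from 0.0663 to 0.271).

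Of 19 regulators of *Bdnf* transcription, 2 rose at 6 h and 1 at 2 days, the latter about the share among all genes. *Npas4*, an activity-induced factor of neurons, had 5.55 and 7.54 CPM in pre-SE mice, 580.22 and 189.39 CPM in the SE 6 h mice and 72.29 and 160.10 CPM in SE 2 days mice. Its logFC was 5.66 (adjusted p = 0.00234) and 4.03 (adjusted p = 0.00501), and the 2 days call was lost without SE 2 days replicate 2 (adjusted p = 0.0671). *Crem*, a CRE-binding factor, had a logFC of 2.11 at 6 h (adjusted p = 0.0101), and its call was lost without pre-SE replicate 2 or SE 6 h replicate 2 (adjusted p up to 0.095). The other 17 were not called at either time, and the list medians were −0.08 and −0.20.

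Genes that neurons switch on in response to BDNF, and also in response to other stimuli, held the most calls of the 8 lists. At 6 h 12 of the 15 tested were called higher, at 2 days 7 of them, and 0 lower, and the medians were 3.03 and 2.24. *Fosb* had 5.90 and 11.22 CPM in pre-SE mice, 585.83 and 645.45 CPM in the SE 6 h mice and 76.53 and 170.51 CPM in SE 2 days mice. *Arc*, which acts at synapses, had 58.15 and 107.60 CPM, then 2128.84 and 789.61 CPM, and then 339.32 and 860.96 CPM. At 6 h the logFC was 6.22 for *Fosb*, 5.29 for *Fos*, 4.94 for *Egr2* and 4.03 for *Arc*. The count at 6 h was 6 without SE 6 h replicate 1 and 7 without any 1 of the other 3 mice. At 2 days it was 0 without SE 2 days replicate 2, 1 without pre-SE replicate 1, 5 without pre-SE replicate 2 and 7 without SE 2 days replicate 1. Many of these genes are general markers of neuronal activity.

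**Figure D4:**
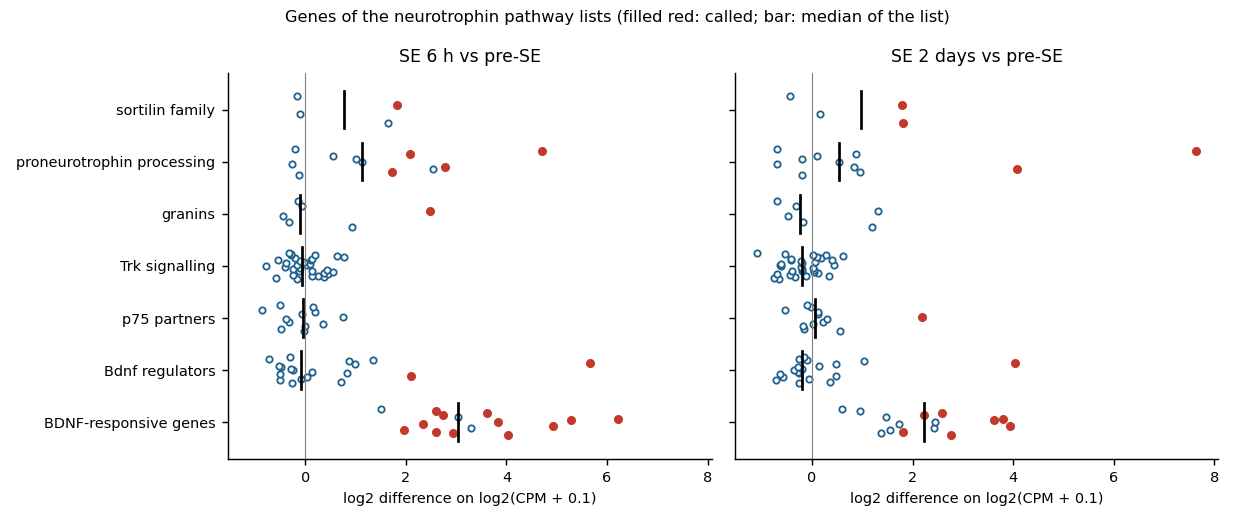
Differences of group means on the log2(CPM + 0.1) scale for each tested gene of the pathway lists in SE 6 h and SE 2 days against pre-SE mice, with called genes marked. The BDNF-responsive genes have the highest medians, 3.03 and 2.24, and the Trk adaptors and kinases lie around 0.

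In the LEV comparisons limma called 0 genes in every one of the 8 lists at both times. Of the 15 BDNF-responsive genes, 11 passed an unadjusted p under 0.05 at 6 h and 11 at 2 days. Their median logFC was −1.55 at 6 h and −1.68 at 2 days, beside 0.04 over all genes both times. Both LEV-treated mice lay below both SE mice for 13 of the 15 at 6 h and 12 of the 15 at 2 days, beside 13.4% and 12.2% of all genes. *Npas4* had 30.63 and 10.72 CPM in SE + LEV 6 h mice (logFC against SE 6 h −4.18, adjusted p = 0.0749), and 22.33 and 11.95 CPM in SE + LEV 2 days mice.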

How the data were processed

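CAGE libraries of 10 mouse hippocampi were analysed. The authors mapped tags to mm9 with BWA 0.7.17 and HISAT2 2.0.5, grouped them into clusters with RECLU, removed those under 0.1 CPM and compared groups with edgeR 3.22.5. The deposited CPM values are 1 per gene and mouse, and the sources used here do not say how clusters became gene values. Totals were recovered from the steps between CPM values, and counting error is only part of the spread between mice.

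Groups were compared in R 4.3.3 with limma 3.58.1, after conversion to log2(CPM + 0.1), in 1 fit of all 10 libraries with 5 group means and a mean-variance trend, with two-sided moderated tests and Benjamini-Hochberg adjustment over 15851 genes. The fit was tested on simulated data. The genes, lists and tests were chosen with earlier results of these data known. Named were the 6 genes, up to 4 called genes of each pathway list, the sortilin family and the 3 genes nearest in pattern to each called member. Promoters came from RefSeq (GRCm38.p6).

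Same-numbered mice are different animals. Alternatives were other pseudocounts (0.01, 0.5, 1), filters, rescaling, a replicate block, no trend, only the groups compared and each mouse left out. A block with crossed numbers was added after seeing the data. *Ntf3* was not analysed here, and some items that fall under these rules are not reported here.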

Additional observations from a re-analysis of the deposited data

How the results depend on the processing

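The counts and ranges of single-gene values in this section do not cover SE + LEV 2 days against SE + LEV 6 h. Of the values of single genes under alternatives other than leaving out a mouse, 432 kept their direction and side of the threshold, 8 lost a call, 2 gained one and 2 reversed. With a mouse left out, 179 kept both, 11 lost a call, 3 gained one and 23 reversed. The reversals lay near 0 or turned on 1 mouse, and their causes were not tested. In SE 6 h against pre-SE, 1 of the 6 genes was called in place of 2 with pseudocounts of 0.01, 0.5 or 1, without a filter, with the replicate block and without the trend, and 0 were called with any mouse left out. In SE 2 days against pre-SE, 0 were called in place of 1 with the replicate block and without the trend, 2 when only these groups were fitted, and 0 to 3 with a mouse left out. In SE + LEV 2 days against pre-SE, 0 to 1 were called with a mouse left out. The other comparisons gave 0 throughout.

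The replicate numbers do not pair the mice. Deviations of same-numbered mice correlated at 0.34 for SE 6 h and pre-SE, and at −0.44 for SE + LEV 2 days and pre-SE. With the block, 373 of all genes were called higher and 29 lower at 6 h, and 715 and 89 at 2 days. With the numbers crossed, 0 members were called in SE + LEV 2 days against pre-SE or SE 2 days. Count-based tests on the recovered tags were not run here, so how the calls would stand under them is not known.

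Rescaling gave logFC of −0.0172 for *Ntrk2* (SE + LEV 2 days against SE 2 days) and −0.0835 for *Vgf* (SE 2 days against SE 6 h). The other reversals came from leaving out a mouse, with the following ranges. Against pre-SE, *Ntrk3* at 6 h ran from −0.10 to 0.92, *Ngfr* at 6 h from −0.36 to 0.56 and *Ngfr* in SE + LEV 6 h from −0.0321 to 0.90. For LEV against SE, *Ntrk3* at 6 h ran from −0.43 to 0.58. At 2 days *Ntrk2* ran from −0.0584 to 0.12, *Ntrk3* from −0.17 to 0.002, *Ngfr* from −1.47 to 0.51 and *Sort1* from −0.0495 to 0.68. For SE 2 days against SE 6 h, *Bdnf* ran from −1.45 to 0.0431, *Ntrk3* from −0.53 to 0.48, *Sort1* from −0.73 to 0.0018 and *Vgf* from −0.63 to 0.67. For the LEV difference at 2 days minus that at 6 h, *Bdnf* ran from −1.30 to 0.19, *Ntrk3* from −0.67 to 0.34, *Ngfr* from −1.81 to 0.18, *Sort1* from −0.24 to 0.49 and *Vgf* from −1.27 to 0.0266. At the shallowest depth 3 tags are 0.285 CPM, so depth limits genes with values near this level.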
